A study of Mus musculus with 4 samples.

Results

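The comparison described here sets a library of mouse lung fibroblasts that received both transforming growth factor beta 1 (TGFB1) and a block of the microRNA miR-9 (Tgfb_Mir9_LOF) against the control library (Ctr). It asks which transcripts end above, below or at the control level when both treatments act. The 2 libraries are 2 of the 4 in the series, with 1 library per condition. The table holds 12767 gene symbols, each represented by its transcript with the highest mean RPKM (reads of a transcript scaled to its length and to the library total) over the 2 libraries. A gene entered the comparison if its RPKM averaged at least 1, which left 9543 genes and set 3224 aside. Mean RPKM was 1.0007 for the last gene let in and 0.9997 for the first one left out.

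All cells were MLg, a wild-type fibroblast line from mouse lung. Control cells were not untreated, since they were transfected with a negative-control antagomiR with a lipid reagent. The Mir9_LOF cells received an antagomiR designed against human miR-9-5p, the Tgfb cells received recombinant human TGFB1 after the control antagomiR, and the Tgfb_Mir9_LOF cells received the miR-9 antagomiR and TGFB1. By the submitters' protocol, antagomiR was used at 60 nM, cells were harvested at 24 h and TGFB1 at 5 ng/ml was present for the final 4 h. Their design text instead says 10 nM and 48 h, and which of them applies is unknown. Nothing in the labels says that libraries came from separate cultures, and with 1 library per condition no difference has a replicate check.

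TGFB1 is a secreted cytokine. It binds a receptor kinase complex on fibroblasts that phosphorylates SMAD2 and SMAD3, and these enter the nucleus with SMAD4 and change the transcription of matrix, adhesion and growth factor genes. In the lung, this response is known for turning fibroblasts into contractile, matrix-depositing cells. A microRNA guides Argonaute proteins to partly complementary RNA, mainly through its seed (bases 2 to 8), and an antagomiR is a modified antisense oligonucleotide that ties up the mature strand. The study also examines miR-9 in the nucleus. The mature strand aimed at by the antagomiR is shown because every treated library here is defined by it or by TGFB1. RefSeq (GRCm38.p6) gives the same sequence of 23 bases from 3 loci, Mir9-1 (chr3:88215613-88215635), Mir9-2 (chr13:83738821-83738843) and Mir9-3 (chr7:79505279-79505301), all on the plus strand, with the seed in capitals.
mmu-miR-9-5p: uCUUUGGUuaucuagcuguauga

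The totals behind the RPKM values were 27416665 reads in control and 19019174 in the doubly treated library, with a median of 372 and 246 reads per compared gene. Precision from counting is therefore lower in the treated library. Rn45s (the ribosomal RNA precursor), Mir6236 and Lars2 took 19.2% of the control total and 28.9% of the treated total, and they enter the divisor of every RPKM. Of 12 fibroblast markers, 11 were measured, none of them was above or below control, and their summed RPKM was 2308 in control and 2256 after both treatments. The markers of other cell types were low in both libraries. Summed RPKM was 6.82 and 3.50 for the epithelial markers, 0.0729 and 0.0656 for the endothelial markers and 6.52 and 4.92 for the leukocyte markers, with 1, 0 and 2 of them passing the filter. The 1 epithelial marker, Krt7, was below control at a log2 ratio of -0.93. In libraries of whole cultures, fewer cells of a type and less RNA per cell cannot be told apart.

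A gene was called above or below control when the log2 ratio of RPKM + 1 reached 0.58, the limit of the study (1.49-fold). This scale understates changes of low genes. Under it, 264 genes (2.77%) were above control, 446 (4.67%) were below and 8833 were at control level. These shares are the background for the counts of list members given below. The median log2 ratio over all 9543 genes was -0.08, and the quartiles were -0.24 and 0.08. Genes with a log2 ratio of 1 or more numbered 96 above and 89 below. The genes above were thus fewer but reached further, up to 4.06 for Ccl5 against -2.37 for Rasl11a. Non-coding transcripts made up 68 of the 264 genes above and 31 of the 446 below, where 396 of the genes compared were non-coding. The limit cut through a dense part of the distribution on the lower side, with 200 genes within 0.05 of -0.58 and 72 within 0.05 of 0.58. The genes nearest the limit had log2 ratios of 0.5844 and 0.5790 on the upper side, and -0.5806 and -0.5799 on the lower side.

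**Figure D1:**
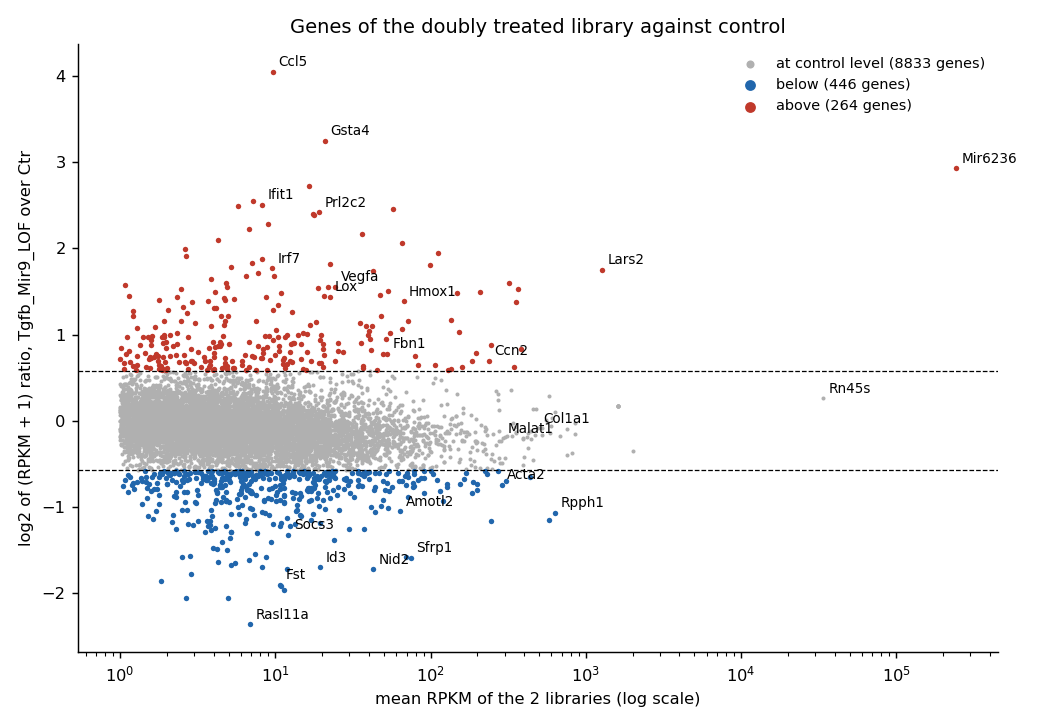
Log2 ratio of RPKM + 1, Tgfb_Mir9_LOF over Ctr (vertical axis), against the mean RPKM of the 2 libraries (log scale), 1 point per gene for 9543 genes, with dashed lines at 0.58 and -0.58. The 264 genes above control reach higher values than the 446 genes below reach downward, and 8833 genes lie between the lines.

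Of the genes past the limit, 62.8% were below control. That share followed the divisor. With Rn45s, Mir6236 and Lars2 taken out of the library totals, 453 genes were above, 229 below (33.6% of those past the limit) and the median log2 ratio moved from -0.08 to 0.07. Centring on the median gave 331 above and 302 below. Each of the 6 scalings tried raised the log2 ratios over control, by at most 0.185. The 264 genes therefore could not drop out, and no gene could cross to the other side. Of the 446 genes below, 229 stayed below under the most different scaling. Statements on genes just past -0.58 therefore rest on the deposited scaling.

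**Figure D2:**
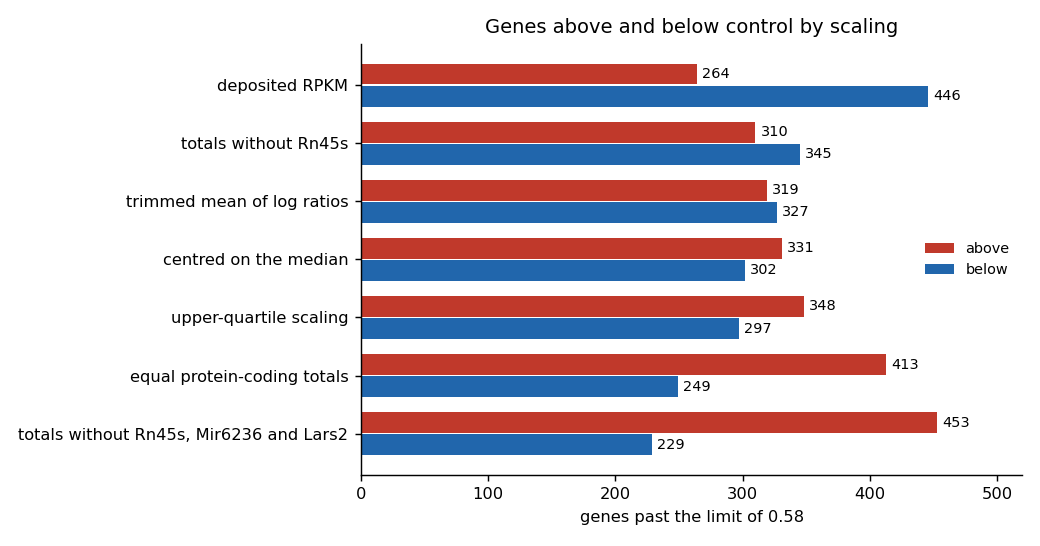
Number of genes above (red) and below (blue) control at a log2 limit of 0.58 under the deposited RPKM values and 6 other scalings of the same counts. Genes above range from 264 to 453 and genes below from 446 to 229, so the side with more genes changes with the scaling.

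Among the lists of protein-coding genes, the interferon-stimulated genes had the most members above control. Interferons act through JAK kinases and STAT and IRF factors, which bind the interferon-stimulated response element (ISRE) in promoters and turn on antiviral effectors. Of 46 measured interferon-induced effectors, 36 were above control and none below, with a median log2 ratio of 0.93 beside -0.08 over all genes. The count above was 37 to 42 under the other scalings. Their median was 0.83 in Mir9_LOF over the same control and -0.09 in Tgfb.

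The IFIT proteins bind foreign 5' ends of RNA, and their genes reached the highest values in the list. RPKM of Ifit1 was 1.76 in Ctr, 16.6 in Mir9_LOF, 1.41 in Tgfb and 14.7 in Tgfb_Mir9_LOF, a ratio of 8.35 (95% counting interval 6.91 to 10.2) for the doubly treated library over control. Ifit3 stood at 2.40, 14.4, 1.01 and 15.6 in the same order, and Ifit3b at 1.40, 10.2, 0.822 and 13.01. For these genes the libraries with the miR-9 antagomiR were high and those without it were low. Ifit3 and Ifit3b are near-identical copies, so their reads may be split between them. Ifi44, another interferon-induced effector, went from 0.448 in control to 2.62, 0.354 and 4.78.

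Usp18, a protease that removes ISG15 from proteins and restrains interferon signalling, had an RPKM of 2.95 in Ctr, 11.8 in Mir9_LOF, 2.76 in Tgfb and 13.5 in Tgfb_Mir9_LOF (ratio 4.60, 3.80 to 5.59). Isg15, the ubiquitin-like modifier itself, stood at 9.36, 38.9, 7.99 and 35.5. Oasl2, of the oligoadenylate synthetase family that senses double-stranded RNA, stood at 2.54, 9.47, 2.89 and 11.6 (ratio 4.56, 3.91 to 5.34). Across the synthetases Oas1a, Oas1b, Oas1g, Oas2 and Oas3, log2 ratios lay between 0.97 and 1.64. The membrane restriction factor Ifitm3 was the most abundant effector above control, at 172 RPKM in Ctr and 318 after both treatments, whereas its neighbour Ifitm2 had a log2 ratio of -0.41 and Ifi27 one of -0.50. In all, 10 members including these were at control level by the limit.

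Upstream of the effectors the group was mixed. Of 23 nucleic acid sensors and interferon transcription factors, 3 were above control and 1 below. Over all genes, 2.77% were above and 4.67% below. The median of the 23 was -0.18, and 5 or 6 were above under the other scalings. Irf7, the factor that amplifies type I interferon production, had 3.79 RPKM in Ctr, 18.6 in Mir9_LOF, 2.96 in Tgfb and 15.4 in Tgfb_Mir9_LOF (ratio 4.06, 3.42 to 4.83). The RNA sensor Dhx58 stood at 1.14, 4.68, 0.517 and 3.77. Stat2 and Irf9, factors that carry the interferon signal to the ISRE, reached log2 ratios of 0.54 and 0.49. Receptors and kinases were near control, with log2 ratios of -0.20 for Ifnar1, -0.31 for Ifnar2, -0.18 for Jak1 and -0.07 for Tyk2. The gene below was Socs3, a feedback inhibitor of JAK kinases, whose RPKM went from 17.8 in Ctr to 16.1 in Mir9_LOF, 8.28 in Tgfb and 6.48 in Tgfb_Mir9_LOF (ratio 0.364, 0.322 to 0.411). For Socs3 the 2 libraries with TGFB1 were the low ones.

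Ccl5, a chemokine that attracts T cells and monocytes, had the largest log2 ratio of all protein-coding genes that averaged at least 5 RPKM. It had 3 reads in Ctr, 152 in Mir9_LOF, 1 in Tgfb and 191 in Tgfb_Mir9_LOF, which is a ratio of 91.8 with a counting interval of 30.9 to 449. Cxcl10, an interferon-induced chemokine, stood at 0.533, 6.02, 0.461 and 4.76 RPKM (ratio 8.92, 5.23 to 16.2). Not all chemokine genes of the list lay on this side. Of 13 measured chemokines and cytokines, 5 were above and 1 was below, namely Cxcl1, with 1.59 RPKM in Ctr, 1.37 in Mir9_LOF, 0.0486 in Tgfb and 0.669 in Tgfb_Mir9_LOF. Under the other scalings 6 were above, and the log2 ratio of Cxcl1 lay between -0.61 and -0.55, so that its call was lost under some of them. Ptgs2, the inducible cyclooxygenase, followed another order of libraries, at 13.1, 11.6, 25.5 and 25.9 RPKM, as did the chemokine Cxcl16, at 4.37, 4.80, 7.71 and 9.09. Of these, Ptgs2 and Cxcl16 were high in both libraries with TGFB1, whereas Ccl5 and Cxcl10 were high in both with the antagomiR.

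MHC class I antigen presentation genes sat just under the limit. None of the 18 measured genes was above or below, yet 17 had a log2 ratio over 0 (63.3% of all genes were under 0), the median was 0.32 and the highest was 0.56 for Tap1, the peptide transporter. Under the other scalings 1 to 6 of them passed. The median was 0.60 in Mir9_LOF and -0.15 in Tgfb. RPKM of the class I heavy chain H2-K1 was 97.5 in Ctr, 166 in Mir9_LOF, 85.2 in Tgfb and 136 in Tgfb_Mir9_LOF, so the doubly treated library lay between control and the antagomiR alone. H2-Q genes are close copies that may share reads.

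The promoters of these genes were read for the ISRE, searched as GAAA, any 2 bases and GAAA again on both strands of windows from 250 bases before to 50 bases after the start of each gene (RefSeq, GRCm38.p6). Windows were matched for 7487 of the 9543 genes, and 3.81% of these genes held a match. Among the interferon-induced effectors 22 of 37 with a window did (59.5%), and 19 of the 22 were above control. Of the effectors with a window but no match, 10 were also above control. Outside that list, 263 genes held a match and 14 of them were above control (5.32%), beside 107 of 7187 genes without a match (1.49%). The 14 genes include interferon-induced genes outside the list, among them the chemokine Cxcl10 and Apol9a, Apol9b, Ifi207 and Tgtp2. This contrast is therefore not free of interferon-induced genes. Genes with a match also had more windows each, with a mean of 1.498 beside 1.266, which gives more room for a match. The shares below control were 4.94% with a match and 4.61% without. A match describes letters in a window and is not evidence of binding. Stretches around matches are shown for genes described above, each on the strand of its gene with the matched bases in capitals (TTTC repeats are the same motif on the other strand). The distance before the start is that of the first matched base, and each stretch with its coordinates begins 12 bases earlier.
Ifit1, chr19:34640792-34640825, plus strand, from 85 bases before the start: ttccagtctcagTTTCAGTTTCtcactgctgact
Ifit3, chr19:34583361-34583394, plus strand, from 156 bases before the start: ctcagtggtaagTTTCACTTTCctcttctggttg
Ifit3b, chr19:34607757-34607790, plus strand, from 188 bases before the start: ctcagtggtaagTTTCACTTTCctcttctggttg
Isg15, chr4:156200869-156200902, minus strand, from 72 bases before the start: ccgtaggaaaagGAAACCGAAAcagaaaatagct
Oas1a, chr5:120907518-120907551, minus strand, from 14 bases before the start: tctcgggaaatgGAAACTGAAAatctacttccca
Igtp, chr11:58199510-58199543, plus strand, from 34 bases before the start: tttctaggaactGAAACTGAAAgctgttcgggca
The stretches of Ifit3 and Ifit3b are the same, which follows their near-identity as genes. Igtp, an immunity-related GTPase, had 5.30 RPKM in Ctr, 17.1 in Mir9_LOF, 4.18 in Tgfb and 16.5 in Tgfb_Mir9_LOF. The window of Oasl2 held no match, which says only that these letters are not in it.

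**Figure D3:**
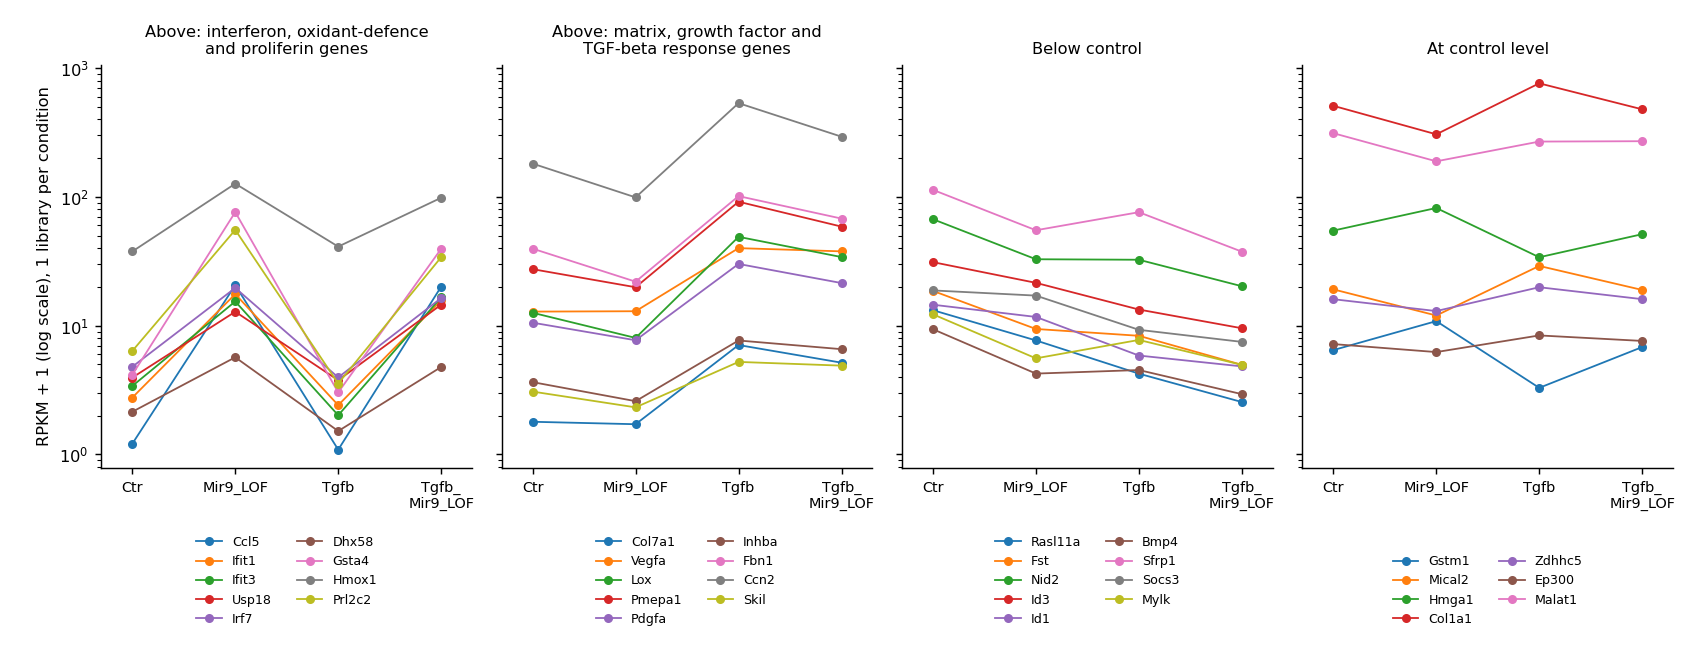
RPKM + 1 (log scale) of named genes in the 4 libraries, 1 library per condition, in 4 panels by where the gene ended in Tgfb_Mir9_LOF. Lines join the values of a gene and do not stand for time. Genes in the first panel are high in Mir9_LOF and Tgfb_Mir9_LOF, those in the second are highest in Tgfb, those in the third are lowest in Tgfb_Mir9_LOF, and those in the fourth end within the limit of their control value.

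Some genes of oxidant defence were also above control, while most of their list stayed at its level. NRF2 is the transcription factor that answers electrophiles and oxidants by inducing glutathione and quinone enzymes. Of 34 measured NRF2 targets and glutathione enzymes, 8 were above control and none below (9 or 10 above under the other scalings), 26 were at control level and the counting interval held 1 for 13, with a median of 0.12 in this comparison, 0.42 in Mir9_LOF and -0.14 in Tgfb. Gsta4, a glutathione S-transferase that clears lipid peroxidation products, had the next largest log2 ratio after Ccl5 under the same minimum, with an RPKM of 3.15 in Ctr, 75.2 in Mir9_LOF, 2.03 in Tgfb and 38.6 in Tgfb_Mir9_LOF (ratio 12.2, 9.72 to 15.6). Hmox1, which degrades haem, stood at 36.7, 126, 40.1 and 97.5 (ratio 2.66, 2.50 to 2.83). Nqo1, a quinone reductase, stood at 2.06, 10.1, 1.72 and 7.22 (ratio 3.51, 2.72 to 4.56). In all of these the doubly treated library was above control and under Mir9_LOF. Gsta2 rested on 1 read in control and 34 after both treatments, a ratio of 49.0 with an interval of 8.22 to 1992.

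The antioxidant response element bound by NRF2, searched as TGACNNNGC on both strands of the same windows, was found for 9 of 28 listed genes (32.1%), beside 16.9% of all genes with a window. Of the 9 genes, 3 were above control, as were 3 listed genes with a window but no match. Gsta4, Hmox1, Nqo1 and Gsta2 were not among the 9. Nfe2l2, the gene of NRF2 itself, had a log2 ratio of -0.17, and Keap1, its inhibitor, one of -0.02.

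All 4 proliferin genes measured (Prl2c2, Prl2c3, Prl2c4 and Prl2c5) were above control, with a median log2 ratio of 2.39. Proliferins are secreted members of the prolactin family found in placenta and in growing mouse fibroblasts. RPKM of Prl2c2 was 5.35 in Ctr, 54.4 in Mir9_LOF, 2.55 in Tgfb and 33.0 in Tgfb_Mir9_LOF (ratio 6.17, 5.07 to 7.57). Prl2c3 and Prl2c4 are near-identical to it and had 113 control reads each, so the family is better read as 1 signal. The median of the 4 was 3.14 in Mir9_LOF and -0.82 in Tgfb, and the doubly treated library lay between control and the antagomiR alone.

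TGF-beta response genes ended on both sides of control. Of 28 measured, 7 were above and 5 below, with a median of 0.14 here, 0.33 in Tgfb and -0.43 in Mir9_LOF. Vegfa, the angiogenic growth factor, had 11.9 RPKM in Ctr, 11.9 in Mir9_LOF, 39.0 in Tgfb and 36.7 in Tgfb_Mir9_LOF (ratio 3.10, 2.88 to 3.34). Lox, whose enzyme crosslinks collagen and elastin, stood at 11.6, 7.03, 48.0 and 33.1 (ratio 2.86, 2.68 to 3.05). Pdgfa, a mitogen for mesenchymal cells, stood at 9.54, 6.70, 29.1 and 20.4 (ratio 2.14, 1.90 to 2.41). In Lox and Pdgfa the doubly treated library lay above control and under Tgfb.

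Other members above control were nearer to the limit. Ccn2, a matricellular protein also known as CTGF, had 180 RPKM in Ctr, 98.1 in Mir9_LOF, 534 in Tgfb and 293 in Tgfb_Mir9_LOF (ratio 1.62, 1.58 to 1.66). Snai1, a repressor of epithelial genes, stood at 5.72, 5.64, 12.5 and 10.9. Timp1, an inhibitor of metalloproteinases, passed at a log2 ratio of 0.59. Other members stayed within the limit, among them Fn1 (0.13), Zeb1 (0.04), Zeb2 (0.15), Snai2 (0.19), Junb (0.47) and Jun (0.01). The 5 members below were Id1, Id2, Id3, Twist1 and Acta2.

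The ID proteins lack a DNA-binding domain and hold other helix-loop-helix factors off DNA. All 3 measured genes were below control, with log2 ratios from -1.71 to -1.58. RPKM of Id3 was 30.1 in Ctr, 20.5 in Mir9_LOF, 12.3 in Tgfb and 8.54 in Tgfb_Mir9_LOF (ratio 0.284, 0.237 to 0.337). Id1 stood at 13.5, 10.7, 4.86 and 3.82, and Id2 at 4.23, 2.20, 1.23 and 0.747. Each of these genes was lowest in the doubly treated library. The list medians were -0.53 in Mir9_LOF and -1.23 in Tgfb. ID genes are known targets of bone morphogenetic proteins (BMP), and Bmp4, a ligand of that pathway, went from 8.38 in Ctr to 3.24 in Mir9_LOF, 3.52 in Tgfb and 1.94 in Tgfb_Mir9_LOF (ratio 0.231, 0.177 to 0.297). Smad6, an inhibitory SMAD of the BMP branch, stood at 5.61, 3.48, 2.88 and 1.95 (ratio 0.348, 0.2798 to 0.429). Whether the levels of Bmp4 and Smad6 bear on those of the ID genes was not tested.

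Ligands and their inhibitors lay on both sides of control. Of 15 TGF-beta ligand and latency genes, 2 were above and 4 below. Inhba, the activin A subunit, had 2.64 RPKM in Ctr, 1.59 in Mir9_LOF, 6.67 in Tgfb and 5.56 in Tgfb_Mir9_LOF (ratio 2.11, 1.87 to 2.38). Inhbb, the activin B subunit, was below control at 30.3, 23.7, 23.7 and 16.9. Fst, follistatin, which sequesters activins, stood at 17.6, 8.42, 7.34 and 3.96 (ratio 0.225, 0.192 to 0.262), whereas the related inhibitor Fstl3 was above control at 3.50, 2.86, 10.7 and 5.998. Ltbp1, which anchors latent TGF-beta in the matrix, was below at a log2 ratio of -0.62 but within the limit, at -0.56 to -0.44, under each of the other scalings.

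Receptors and SMADs were mostly at control level. Of 11 measured, 2 were below and none above. Tgfbr3, betaglycan, a co-receptor, had 22.6 RPKM in Ctr, 17.7 in Mir9_LOF, 13.6 in Tgfb and 12.6 in Tgfb_Mir9_LOF. Smad3 stood at 12.8, 10.5, 7.27 and 7.11 (ratio 0.556, 0.508 to 0.608). For both genes, the 2 libraries with TGFB1 were the low ones. Tgfbr2, the ligand-binding receptor kinase, had a log2 ratio of -0.01 and Smad4 one of -0.02. Among 10 feedback inhibitors, Pmepa1, Tgif1 and Skil were above control and Smad6 below. Pmepa1, which holds SMADs away from the receptor, stood at 26.5, 18.9, 90.7 and 57.8 (ratio 2.18, 2.09 to 2.28).

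Collagen chains spread from below to above control. Of 16 measured, 4 were below (Col6a1, Col6a2, Col8a1 and Col12a1), 1 was above (Col7a1), and the median was -0.17 here, 0.29 in Tgfb and -0.50 in Mir9_LOF. Col7a1, which forms anchoring fibrils, had 0.791 RPKM in Ctr, 0.714 in Mir9_LOF, 6.07 in Tgfb and 4.15 in Tgfb_Mir9_LOF (ratio 5.25, 4.48 to 6.17). Col6a1, of the microfibrillar collagen VI, stood at 39.1, 28.9, 26.8 and 21.4 (ratio 0.546, 0.515 to 0.578). Another chain of collagen VI, Col6a3, had a log2 ratio of 0.34, so chains of 1 trimer ended on different sides of 0. Col3a1 and Col18a1 reached 0.57 and 0.58 and lay at the limit, and under the other scalings 3 chains were above and 2 to 4 below.

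Of 28 matrix glycoproteins and microfibril genes, 7 were below, 2 were above and the median was -0.34. Under the other scalings 2 to 6 were below and 2 to 5 above. Nid2, which links laminin to collagen IV in basement membranes, had 66.1 RPKM in Ctr, 31.8 in Mir9_LOF, 31.5 in Tgfb and 19.2 in Tgfb_Mir9_LOF (ratio 0.291, 0.276 to 0.306). Hspg2, perlecan, of the same membranes, was below at a ratio of 0.599, and its log2 ratio of -0.73 became -0.55 under the scaling furthest from the deposited one. Fbn1, the core of microfibrils, was above control, at 38.6, 20.9, 100.4 and 66.9 (ratio 1.73, 1.69 to 1.78). Postn, periostin, stood at 0.722, 0.628, 2.04 and 2.65, and for this gene the doubly treated library was the highest of the 4. Bgn and Sparc, among the most abundant matrix transcripts, had log2 ratios of -0.03 and -0.42. Matrix proteases and their inhibitors counted 5 above and 5 below of 20. Adamts5, an aggrecanase, was below at a ratio of 0.325 (0.285 to 0.371), and Mmp9, a gelatinase, was above at 3.12 (2.20 to 4.49) from 0.554 RPKM in control.

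Smooth muscle and contractile genes ended below or at control in the library that received TGFB1 with the antagomiR. Of 21 measured, 6 were below and none above (3 to 6 below under the other scalings), where 4.67% of all genes were below. Their median was -0.37 here, -0.77 in Mir9_LOF and 0.22 in Tgfb. Acta2, smooth muscle actin, the usual marker of myofibroblasts, had 360 RPKM in Ctr, 164 in Mir9_LOF, 420 in Tgfb and 214 in Tgfb_Mir9_LOF (ratio 0.595, 0.582 to 0.609). Its log2 ratio of -0.75 became -0.56 under the scaling furthest from the deposited one, which is within the limit. Mylk, the kinase that activates myosin, stood at 11.2, 4.57, 6.74 and 3.96 (ratio 0.352, 0.321 to 0.385). Lmod1, an actin nucleator of smooth muscle, stood at 12.1, 4.23, 11.5 and 5.20, and Actg2, enteric smooth muscle actin, at 13.3, 7.03, 16.9 and 6.85. In Acta2 and Lmod1 the libraries with the antagomiR were the low ones, whereas Mylk was also low in Tgfb. Tagln, a further marker of this programme, had a log2 ratio of -0.53.

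A CArG box, the motif of the serum response factor that drives these genes, was found on either strand in 3 of 19 contractile promoters with a window (15.8%) and in 1.66% of all promoters. Of the 3 genes, 1 was below control. Focal adhesion and actin-crosslinking genes counted 4 below and 1 above of 23, with a median of -0.24. This balance was not kept under the other scalings, which gave 1 or 2 below, 2 above and medians of -0.18 to -0.06. Actn4, an actin crosslinker, had 255 RPKM in Ctr and 145 after both treatments and was below under each scaling. Vcl, vinculin, and Flnc, filamin C, were within the limit under every other scaling, and Tln1, talin, under some of them. Csrp2, a LIM-domain protein, was above at 7.37 and 13.6.

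Integrin subunits, the matrix receptors, split as well, with 2 above and 3 below of 11 (3 or 4 above and 2 or 3 below under the other scalings). Itga2, the collagen receptor subunit, had 1.03 RPKM in Ctr, 0.816 in Mir9_LOF, 3.54 in Tgfb and 4.06 in Tgfb_Mir9_LOF (ratio 3.96, 3.36 to 4.68). Itga3, a laminin receptor subunit, was below, at 24.0, 19.7, 13.7 and 10.8 (ratio 0.450, 0.419 to 0.484). Itgb3 was above at a ratio of 3.61 (2.72 to 4.85) from 0.437 RPKM in control.

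**Figure D4:**
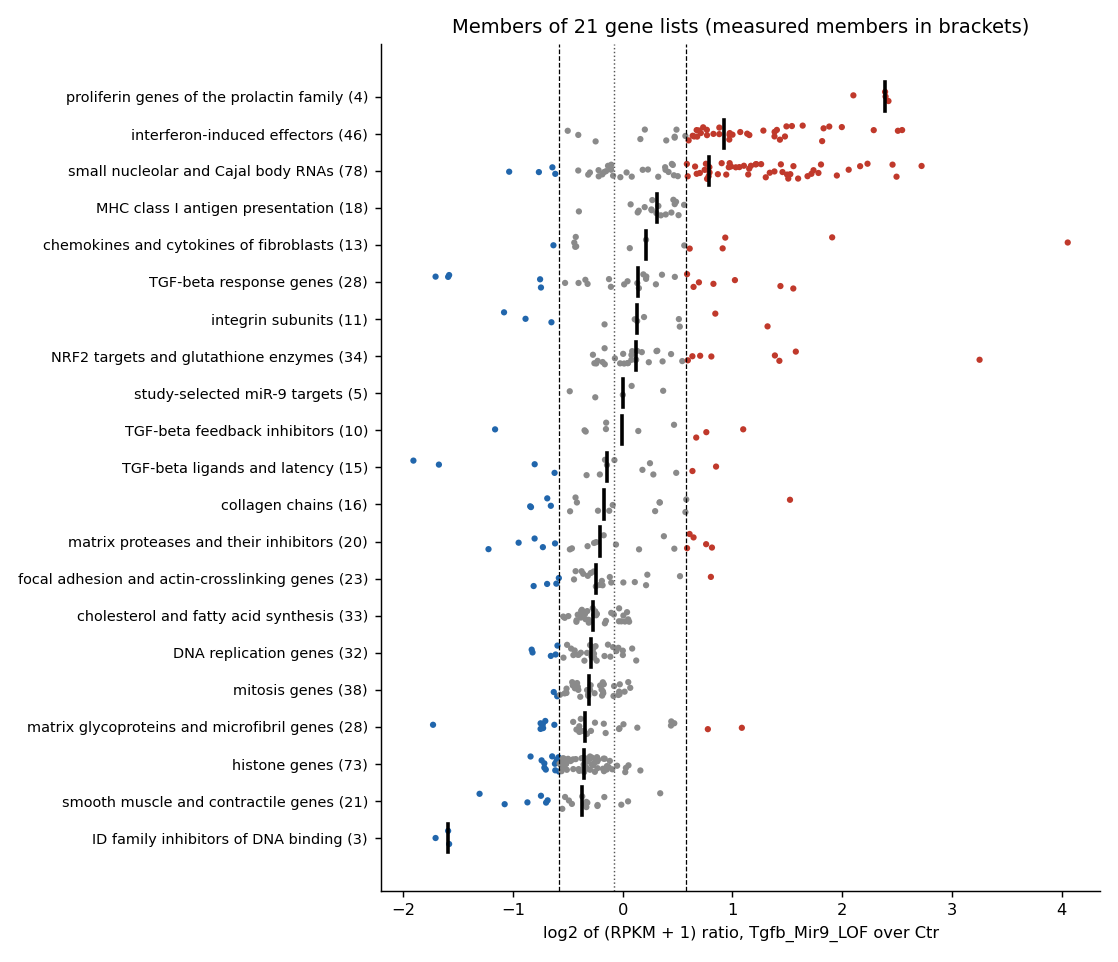
Log2 ratio of RPKM + 1, Tgfb_Mir9_LOF over Ctr (horizontal axis), for each measured member of 21 gene lists, with the number measured in brackets. Black bars are list medians, dashed lines are at 0.58 and -0.58, the dotted line is the median of all genes (-0.08), and red and blue points are past the limit. Proliferins (2.39) and interferon-induced effectors (0.93) have the highest medians and the ID genes (-1.59) the lowest, and matrix lists spread over both sides.

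Growth factor genes lay on both sides, with 5 above and 5 below of 26 ligands, receptors and binding proteins of the PDGF, FGF, EGF and VEGF systems (5 to 7 above and 2 to 4 below under the other scalings). Vegfd, a lymphatic growth factor, was below, at 19.1 RPKM in Ctr, 14.4 in Mir9_LOF, 7.69 in Tgfb and 7.74 in Tgfb_Mir9_LOF (ratio 0.405, 0.345 to 0.475), while Vegfc, its close relative, was above at a ratio of 1.75 (1.46 to 2.10). Fgfr2, a receptor for FGF7 and FGF10, stood at 18.6, 10.2, 12.04 and 8.42. In the Notch and Wnt pathways, 2 of 20 genes were above and 4 below, against 3 above and 2 below under each of the other scalings. Sfrp1, a secreted Wnt antagonist, had 112 RPKM in Ctr, 54.1 in Mir9_LOF, 75.1 in Tgfb and 36.5 in Tgfb_Mir9_LOF (ratio 0.325, 0.312 to 0.338). Jag1, a Notch ligand, stood at 1.78, 1.33, 5.18 and 3.93.

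Under the same minimum of 5 RPKM, the lowest log2 ratio belonged to Rasl11a, a small GTPase of the RAS family. Its RPKM was 12.2 in Ctr, 6.67 in Mir9_LOF, 3.23 in Tgfb and 1.55 in Tgfb_Mir9_LOF (ratio 0.127, 0.0863 to 0.182). Septin4, a septin of the cytoskeleton, stood at 18.6, 8.601, 7.46 and 4.00, and Pkdcc, a secreted tyrosine kinase, at 17.6, 11.9, 5.27 and 3.94. These genes shared an order in which each treatment alone was below control and both together were lowest. Cck, the peptide hormone cholecystokinin, stood at 18.7, 7.72, 10.5 and 4.98, and Svep1, a large cell adhesion protein, at 13.004, 4.76, 6.72 and 3.302. Cebpd, a transcription factor of inflammation and fat cell formation, had 8.87, 6.53, 2.93 and 2.14 (ratio 0.242, 0.192 to 0.302). With Fst, Nid2, Id3 and Bmp4, these are the 10 lowest genes. They were chosen for a low ratio of the doubly treated library to control, which largely fixes that library as the lowest.

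Transcription factors of mesenchymal cells went both ways, with 4 of 19 above and 3 below (4 to 6 above under the other scalings). Runx1 had 2.75 RPKM in Ctr, 2.33 in Mir9_LOF, 7.17 in Tgfb and 6.39 in Tgfb_Mir9_LOF (ratio 2.33, 2.09 to 2.60). Sox9, a factor of cartilage and of progenitor cells, stood at 3.74, 5.50, 3.40 and 6.69, and Twist1 was below at 8.10, 5.10, 4.88 and 4.40. Among p53 targets, 4 of 20 were above and none below. Their median was -0.03, with 10 log2 ratios over 0 and 10 under, and 11 counting intervals held 1. Gadd45a, a growth arrest and DNA damage gene, stood at 5.81, 6.02, 10.4 and 12.5, and Plk2, a stress-induced kinase, at 27.5, 32.4, 49.6 and 53.8. For both, the doubly treated library was the highest. Of the 23 immediate early genes, Egr2 was above at a ratio of 3.73 (2.74 to 5.14) and Nr4a1 below at 0.494 (0.415 to 0.587). Dusp1, a phosphatase that switches off MAP kinases, was below, at 15.4, 8.63, 8.98 and 5.97.

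Most genes of division were at control level by the limit. Of 32 DNA replication genes, 5 were below (15.6%) and none above, with a median of -0.29, and 28 had a log2 ratio under 0. Of 38 mitosis genes, 2 were below (5.26%, beside 4.67% of all genes) and none under the other scalings. Their median was -0.31, and 35 had a log2 ratio under 0. Over all genes 63.3% were under 0, and 26 of the replication genes and 30 of the mitosis genes lay under the median of all genes. Ccnd1, cyclin D1, had 55.4 RPKM in Ctr, 56.0 in Mir9_LOF, 27.9 in Tgfb and 32.1 in Tgfb_Mir9_LOF (ratio 0.578, 0.551 to 0.607). Histone genes counted 13 below (17.8%, beside 4.67% of all genes) and none above of 73. Their median was -0.35 here, -0.39 in Tgfb and 0.22 in Mir9_LOF. The linker histone H1f5 stood at 237, 224, 124 and 132. Under the other scalings 1 to 6 histone genes and 2 or 3 replication genes were below. Histone messages mostly lack poly(A) tails and are seen here because total RNA was sequenced.

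A gene can also end at control level after both single treatments moved it. Among genes within 0.1 of a log2 ratio of 0, 6 were named because they passed the limit one way in Mir9_LOF and the other way in Tgfb. Col1a1, the main chain of collagen I, had 509 RPKM in Ctr, 305 in Mir9_LOF, 762 in Tgfb and 478 in Tgfb_Mir9_LOF (ratio 0.939, 0.928 to 0.949). Mical2, an oxidase that promotes the SRF cofactor MRTF by acting on actin, stood at 18.1, 11.0, 28.1 and 17.9 (ratio 0.989, 0.937 to 1.04). These were low with the antagomiR and high with TGFB1. Gstm1, a glutathione S-transferase, was the other way round, at 5.45, 9.84, 2.29 and 5.81 (ratio 1.07, 0.852 to 1.33), as was the chromatin protein gene Hmga1, at 53.7, 81.0, 33.0 and 50.3. Hmga1b is a copy with nearly the same reads, and Mir692-3 rested on 20 control reads. Opposite calls in the single treatments rest on the deposited scaling for some of these genes. Other library totals raised Mir9_LOF over control by 0.18 to 0.29 in log2. In Mir9_LOF, Col1a1 (-0.74) and Mical2 (-0.67) passed the limit by less than that. Col1a1 in Tgfb and Hmga1 in Mir9_LOF lay at the limit, both at 0.58. The rule that named these 6 fixed this pattern, so the values are a description of it.

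The genes that the study singled out as miR-9 targets, Zdhhc5, Ncl, Lzts2, Hdac7 and Ep300, were all at control level, with a median log2 ratio of 0.00. The study took the first 4 from its mapping of chromatin bound by miR-9 and also examined Ep300. Zdhhc5, a palmitoyltransferase, had 15.0 RPKM in Ctr, 11.97 in Mir9_LOF, 18.9 in Tgfb and 15.1 in Tgfb_Mir9_LOF (ratio 1.00, 0.933 to 1.07). Ep300, a histone acetyltransferase, stood at 6.19, 5.23, 7.39 and 6.61 (ratio 1.07, 0.986 to 1.15). For both the counting interval of the deposited scaling held 1. Ncl, nucleolin, which also binds G-quadruplexes, stood at 46.0, 37.0, 55.3 and 59.6 (ratio 1.30, 1.26 to 1.33), Lzts2 at 23.8, 23.4, 19.5 and 19.9 (ratio 0.834, 0.772 to 0.9005) and the deacetylase gene Hdac7 at 16.3, 15.5, 12.4 and 11.4 (ratio 0.698, 0.641 to 0.759). Their intervals were off 1 without reaching the limit, the first upward and the other 2 downward. All 5 intervals apply to the deposited scaling. Under the other scalings the log2 ratio was 0.06 to 0.17 for Zdhhc5, 0.14 to 0.24 for Ep300 and 0.43 to 0.55 for Ncl. It was -0.19 to -0.07 for Lzts2 and -0.42 to -0.31 for Hdac7. None of the 5 passed the limit, and their median was 0.06 to 0.17. Malat1, an abundant nuclear long non-coding RNA, had 312, 188, 268 and 270 RPKM (ratio 0.866, 0.855 to 0.877).

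Messages with a seed match to miR-9-5p had log2 ratios close to those of messages without one. The match was ACCAAAG, searched on the sense strand of 3' untranslated regions of the GENCODE transcripts paired with the RefSeq transcripts (GRCm38), for 7914 genes. The median log2 ratio was -0.09 for 6941 genes without a match, -0.07 for 843 with 1 match and -0.06 for 130 with 2 or more. The share above control was 2.29%, 1.78% and 2.31% in these groups, and the share below was 4.50%, 5.93% and 6.15%. Genes with matches have longer untranslated regions, with a median of 837 nt, 1964 nt and 3292 nt. Among the longest untranslated regions (those in the highest of 4 length classes) the medians were -0.05, -0.04 and -0.06. In that class the shares above were 1.74%, 1.84% and 1.92%. The shares below were 3.54%, 5.76% and 7.69%, the last from 8 of 104 genes, so this difference remained within the class. In promoters the same letters on either strand occurred for 3.85% of genes, for 4.00% of genes above and for 6.40% of genes below. Over all genes compared, 4.67% were below. Of 18 miR-9-5p targets known from other tissues, 2 were below and none above, with a median of -0.02. The 2 were Lifr, a cytokine receptor, at a ratio of 0.433, and Socs5, an inhibitor of cytokine signalling, at 0.643. Socs5 was within the limit, at -0.54 to -0.42, under each of the other scalings, which left 1 below.

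**Figure D5:**
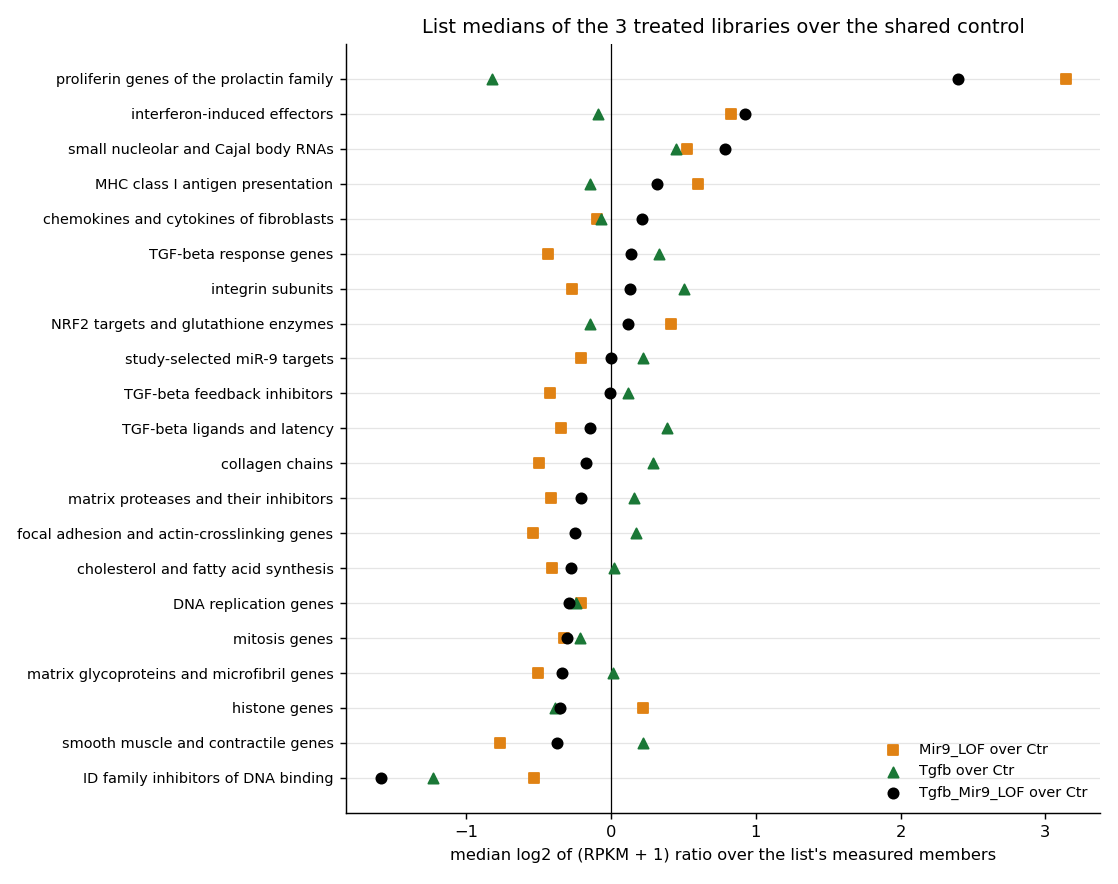
Median log2 ratio of RPKM + 1 over the measured members of 21 gene lists (horizontal axis) in Mir9_LOF (orange squares), Tgfb (green triangles) and Tgfb_Mir9_LOF (black circles), each over the same control library. For interferon-induced effectors the medians are 0.83, -0.09 and 0.93, for contractile genes -0.77, 0.22 and -0.37, and for ID genes -0.53, -1.23 and -1.59. The 3 comparisons share their control library, so the points of a row are not independent.

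Small RNAs gave the largest share of the non-coding genes above control. Of 78 small nucleolar and Cajal body RNAs, which guide chemical modification of ribosomal and spliceosomal RNA, 48 were above and 4 below (48 to 52 and 2 or 3 under the other scalings), with a median of 0.79 here, 0.52 in Mir9_LOF and 0.45 in Tgfb. Snord70 had 24 reads in Ctr, 53 in Mir9_LOF, 66 in Tgfb and 96 in Tgfb_Mir9_LOF (ratio 5.77, 3.66 to 9.43). Snora61 had 6, 17, 15 and 34 reads (ratio 8.17, 3.39 to 23.8). For 37 of the 78 the counting interval held 1, so the counts are thin. None of the 15 host transcripts that carry such RNAs in their introns was past the limit, their median was 0.13, and 1 or 2 were above under the other scalings. Reads of a host intron and of the small RNA in it cannot be told apart in these counts. The precursors of microRNAs were thinner, with 9 above and 11 below of 51, and 43 intervals holding 1.

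The RNA components of RNase P and related genes lay on the other side. Rpph1, the RNA of the enzyme that trims the 5' ends of transfer RNAs, had 862 RPKM in Ctr, 486 in Mir9_LOF, 594 in Tgfb and 410 in Tgfb_Mir9_LOF (ratio 0.476, 0.455 to 0.498). Rprl2 and Rprl3, genes resembling it, had ratios of 0.445 and 0.449. Of the longer non-coding transcripts above control, Scarna13 had 34.7, 91.0, 27.8 and 67.7 RPKM (ratio 1.95, 1.66 to 2.30), and the precursor Mir3069 lies inside it. Gm15270 stood at 29.4, 17.9, 95.3 and 52.8, and its annotated span runs into Ccn2, so their reads may be shared. Lncpint, a p53-linked long non-coding RNA, was above at a ratio of 2.60 (1.79 to 3.81).

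The RNAs that weigh on the divisor were themselves unequal. Mir6236 had 56097 RPKM in Ctr, 373336 in Mir9_LOF, 36141 in Tgfb and 428950 in Tgfb_Mir9_LOF (ratio 7.65, 7.61 to 7.68). Lars2, annotated as the mitochondrial leucyl-tRNA synthetase, stood at 579, 1851, 573 and 1955 (ratio 3.38, 3.34 to 3.41). Rn45s was at control level by the limit, at a ratio of 1.20. Mir6236 and Lars2 were high in both libraries with the antagomiR. Whether depletion of ribosomal RNA differed between libraries was not tested.

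Of the 55 lists, 15 with 388 measured members had none past the limit. Among them were the 83 cytosolic ribosomal proteins (median -0.12), 33 genes of cholesterol and fatty acid synthesis (-0.27), 31 proteasome subunits (0.06), 34 SR proteins and hnRNPs (-0.04), 29 enhancer coactivators and chromatin remodellers (-0.09), 21 H3K4 methyltransferases and demethylases (-0.15), 26 G-quadruplex helicases and binders (-0.03) and 12 microRNA processing and Argonaute genes (0.00). Of the cholesterol genes, 28 of 33 (84.8%, beside 63.3% of all genes) were under 0, 25 were under the median of all genes and the lowest was at -0.54, and their median lay between -0.21 and -0.09 under the other scalings. Under another scaling, 6 of the 15 lists had a member above the limit and none had a member below it. In 19 lists, members were found above and below control, in 7 only above and in 14 only below.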

How the data were processed

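Total RNA of MLg fibroblasts was sequenced in 4 libraries, 1 per condition, and the titles gave the groups. The authors sequenced single-end reads on a NextSeq instrument, trimmed the reads (Trimmomatic 0.36 by the submitters' processing notes), aligned them to mm10 with Bowtie2 and used HOMER to count the reads of both strands in RefSeq exons, unadjusted for depth. For HOMER, Bowtie2 and edgeR, the version is not given in the sources used here. Counts were deposited as whole numbers for each transcript. Isoforms that share an exon each receive its reads, and reads of overlapping, antisense or near-identical genes cannot be assigned. The deposited RPKM values were computed by the authors with edgeR from the library totals, Rn45s included, and 1 was added to each, which was subtracted here. Transcript lengths are deposited in nucleotides. The deposited log2 fold changes of each treated library over control and a summed RPKM column were not used.

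With 1 library per group, there is no test between conditions and no p-value. Ratios of RPKM are given with exact conditional binomial 95% intervals from the counts, which cover counting error only. Log2 ratios are of RPKM + 1, for genes that averaged at least 1 RPKM, with 1 transcript per symbol. Alternatives were 6 scalings, pseudocounts of 0.1 and 5, 3 filters, a log2 limit of 1 and 2 choices of transcript. Genes named were, at a mean RPKM of 5 or more, the 10 highest and 10 lowest protein-coding genes and the 3 non-coding transcripts of 200 nt or more furthest each way (where 3 passed the limit), up to 4 members each way in each of 55 lists, 6 genes at control level that passed the limit in opposite directions in the single treatments, and Zdhhc5, Ncl, Lzts2, Hdac7, Ep300, Malat1, Rn45s, Mir6236 and Lars2. C130071C03Rik, a host transcript of a miR-9 precursor, did not enter the comparison. Other members are named for context after their values were seen. The comparison, lists and rule were chosen with earlier results of these data known, and the patterns of 3 lists (histones, microRNA precursors and zinc fingers) were corrected after matching. Functions were tested on simulated data. Python 3.11.15, numpy 2.4.6, pandas 2.3.3, scipy 1.17.1 and matplotlib 3.10.9 were used. Gene positions, promoters and miRNA sequences are from RefSeq (GRCm38.p6) and untranslated regions from GENCODE M21.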

Additional observations from a re-analysis of the deposited data

How the results depend on the processing

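No paired analysis was possible because each condition has 1 library, and for the same reason no replicate could be left out. The scaling moved the balance of genes above and below, and the pseudocount, the limit and the counting of every transcript moved their number. Totals without Rn45s, Mir6236 and Lars2 gave 453 genes above and 229 below, equal protein-coding totals gave 413 and 249, and upper-quartile scaling gave 348 and 297. Totals without Rn45s (310 and 345), the trimmed mean of log ratios (319 and 327) and centring on the median (331 and 302) lay between these and the deposited scaling (264 and 446). A pseudocount of 0.1 gave 403 above and 667 below, and one of 5 gave 127 and 178. A filter at a mean RPKM of 5 left 4704 genes, with 144 above, 294 below and 4266 at control level. A log2 limit of 1 gave 96 above and 89 below. Counting every transcript gave 414 above, 801 below and 17765 at control level of 18980. Under none of the settings with 1 transcript per symbol did a gene go from above to below or the reverse. Of these settings, only the choice of the longest transcript could have moved a gene across. The depth limits the low genes: of the 264 genes above, 249 had a counting interval over 1, and of the 446 below, 436 had one under 1.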

Other observations

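Genes outside the lists are given here as values, and they were chosen after their values were seen. Of the genes past the limit, 113 above and 335 below belonged to none of the 55 lists. Several secreted and adhesion genes were above control and highest in Tgfb. RPKM of Spp1, osteopontin, was 77.2 in Ctr, 67.6 in Mir9_LOF, 232 in Tgfb and 218 in Tgfb_Mir9_LOF. Ccn4, a matricellular relative of Ccn2, stood at 10.5, 7.97, 37.7 and 30.4, and Ncam1, a neural cell adhesion molecule, at 10.7, 7.76, 45.1 and 33.2. Il1rl1, the receptor of interleukin 33, stood at 25.9, 27.3, 61.3 and 54.4, and Tnfrsf11b, osteoprotegerin, at 2.50, 1.67, 9.28 and 8.36.

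Angptl2, a secreted angiopoietin-like protein, had 26.2 RPKM in Ctr, 37.1 in Mir9_LOF, 43.3 in Tgfb and 53.1 in Tgfb_Mir9_LOF. It was thus higher than control in each treated library and highest in the doubly treated one. In Mir9_LOF its log2 ratio of 0.49 was within the limit under the deposited scaling. Blvrb, a biliverdin reductase, was high only with the antagomiR, at 6.25, 18.4, 5.34 and 14.0. On the other side, Ly6c1, a surface antigen, stood at 35.2, 38.2, 10.4 and 12.8, and Ramp3, a partner of the calcitonin receptor-like receptor, at 10.7, 11.8, 2.72 and 2.81. Adm, adrenomedullin, a ligand of that receptor, stood at 53.003, 37.1, 23.9 and 21.5. For Ly6c1, Ramp3 and Adm, the 2 libraries with TGFB1 were the low ones. Cemip, which degrades hyaluronan, stood at 105, 48.4, 60.1 and 34.4, below control in each treated library and lowest after both.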
